A study of Rattus norvegicus with 10 samples.

Results

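Expression of 10 genes of the Notch pathway was followed in JUG2 cells, an enteric glial cell (EGC) line from rat: the Hes/Hey repressors Hey1, Hey2, Heyl, Hes1 and Hes5, the receptors Notch1, Notch2 and Notch3, and the ligands Jag1 and Dll1. They were chosen by gene symbol, as 10 of 15037 genes that carry a platform symbol among 23188 transcript clusters, the units in which the array summarizes the probes of a transcript. Each of the 10 genes had 1 transcript cluster. Hey1, for example, was read by TC0200000803.rn.2.

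The 10 Clariom S arrays covered 4 groups. The SOX10 +dox and SOX10 -dox cells carried lentiviral copies of a doxycycline-driven Sox10 vector (TetO-FUW-Sox10) and of the TET3G transactivator under an EF1a promoter, and differed by 48 h with 1 µg/ml doxycycline, with 4 arrays each. The GFP +dox and GFP -dox cells carried the same transactivator with a doxycycline-driven GFP, and had 1 array each. Both lines were selected and kept in puromycin, the -dox cells received no doxycycline, and the methods give no cloning step for either line.

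Notch receptors and their ligands are membrane proteins of neighbouring cells. A ligand that binds a receptor exposes it to proteases, ADAM10 outside the membrane and γ-secretase within it, and the freed intracellular domain enters the nucleus, where it joins RBPJ and a Mastermind-like (MAML) coactivator. The genes switched on first are often those of the Hes and Hey families, repressors that hold down proneural genes. In the developing mouse gut, Notch signalling keeps enteric progenitors from becoming neurons too early, and it favours glia in several parts of the nervous system.

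Sox10, the induced gene, had signals of 12.93, 12.62 and 13.02 (log2) in SOX10 +dox replicates 2 to 4, against 6.39, 6.11 and 6.43 in SOX10 -dox replicates 2 to 4, a difference of 6.55 ± 0.22 (standard error of the fit, adjusted p = 3.3e-08, limma). In replicate 1 it ran against the labels, with 6.74 on the array labelled SOX10 +dox and 12.90 on the array labelled SOX10 -dox. Of 812 transcript clusters called in replicates 2 to 4, 804 had the opposite sign in replicate 1 as labelled. Comparisons were therefore made on replicates 2 to 4, and the arrays labelled replicate 1 are given apart. Because Sox10 itself guided that choice, its p-value on these arrays is a description and no independent test. With all 8 SOX10 arrays as labelled its difference was 3.37 ± 1.63 (adjusted p = 0.973, limma). Replicate 4 also stood apart from replicates 2 and 3, with 1706 to 1758 transcript clusters at least 2-fold different within SOX10 +dox and 1318 to 1485 within SOX10 -dox, against 555 and 645 between replicates 2 and 3. The methods give 4 independent experiments, while the labels do not say what a replicate was, so p-values measure the spread between these arrays. Of the 6 enteric glial markers other than the induced gene, 4 rose in SOX10 +dox cells (S100b, Erbb3, Ngfr and Nes). The mean signal over the 6 was 8.23 to 8.60 in SOX10 +dox and 5.91 to 6.28 in SOX10 -dox arrays. It joins unlike genes, as Erbb3 differed by 7.34 (group means 13.52 and 6.17) and Fabp7 by 0.01. Gfap, a glial intermediate filament gene, had 5.83, 6.30 and 5.44 in SOX10 +dox and 5.45, 5.63 and 5.81 in SOX10 -dox arrays. No marker of smooth muscle (5), fibroblasts (4), endothelium (4), macrophages (4) or enteric neurons (3) passed the test, but with the replicate number as a block the smooth muscle gene Tagln did (-1.04 ± 0.19, adjusted p = 0.0127, against 0.188 without the block). The smooth muscle list had mean signals of 8.97 to 9.67 in SOX10 +dox and 9.51 to 10.16 in SOX10 -dox arrays. These means join unlike genes. Acta2 had group means of 14.73 in SOX10 +dox and 15.48 in SOX10 -dox, and Tagln 13.98 and 15.01. Cnn1, Des and Myh11 lay between 5.36 and 6.56 in both groups. The fibroblast list had mean signals of 9.81 to 9.95 in SOX10 +dox and 9.96 to 10.26 in SOX10 -dox arrays, again over unlike genes. Col1a1 had group means of 18.77 in SOX10 +dox and 19.20 in SOX10 -dox, and Lum 4.86 and 4.39. Pdgfra and Dcn lay between these. The part of either list in the results below was not tested.

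Among the 10 genes, Hey1 rose and none fell. The other 9 did not pass the test, which required an adjusted p under 0.05 and a change of at least 2-fold. Over all transcript clusters 3.50% passed it, 2.26% higher and 1.24% lower. The median difference of the 10 genes was 0.12 (log2, range -0.27 to 2.07), beside -0.02 over all transcript clusters, with 6 genes above 0 and 4 below. For 8 of the 9 genes that did not pass, the 95% interval of the difference lay within 2-fold in either direction, and Notch2 was the exception. Since RNA of whole cultures was measured, fewer cells with a transcript and less transcript per cell cannot be told apart.

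**Figure D1:**
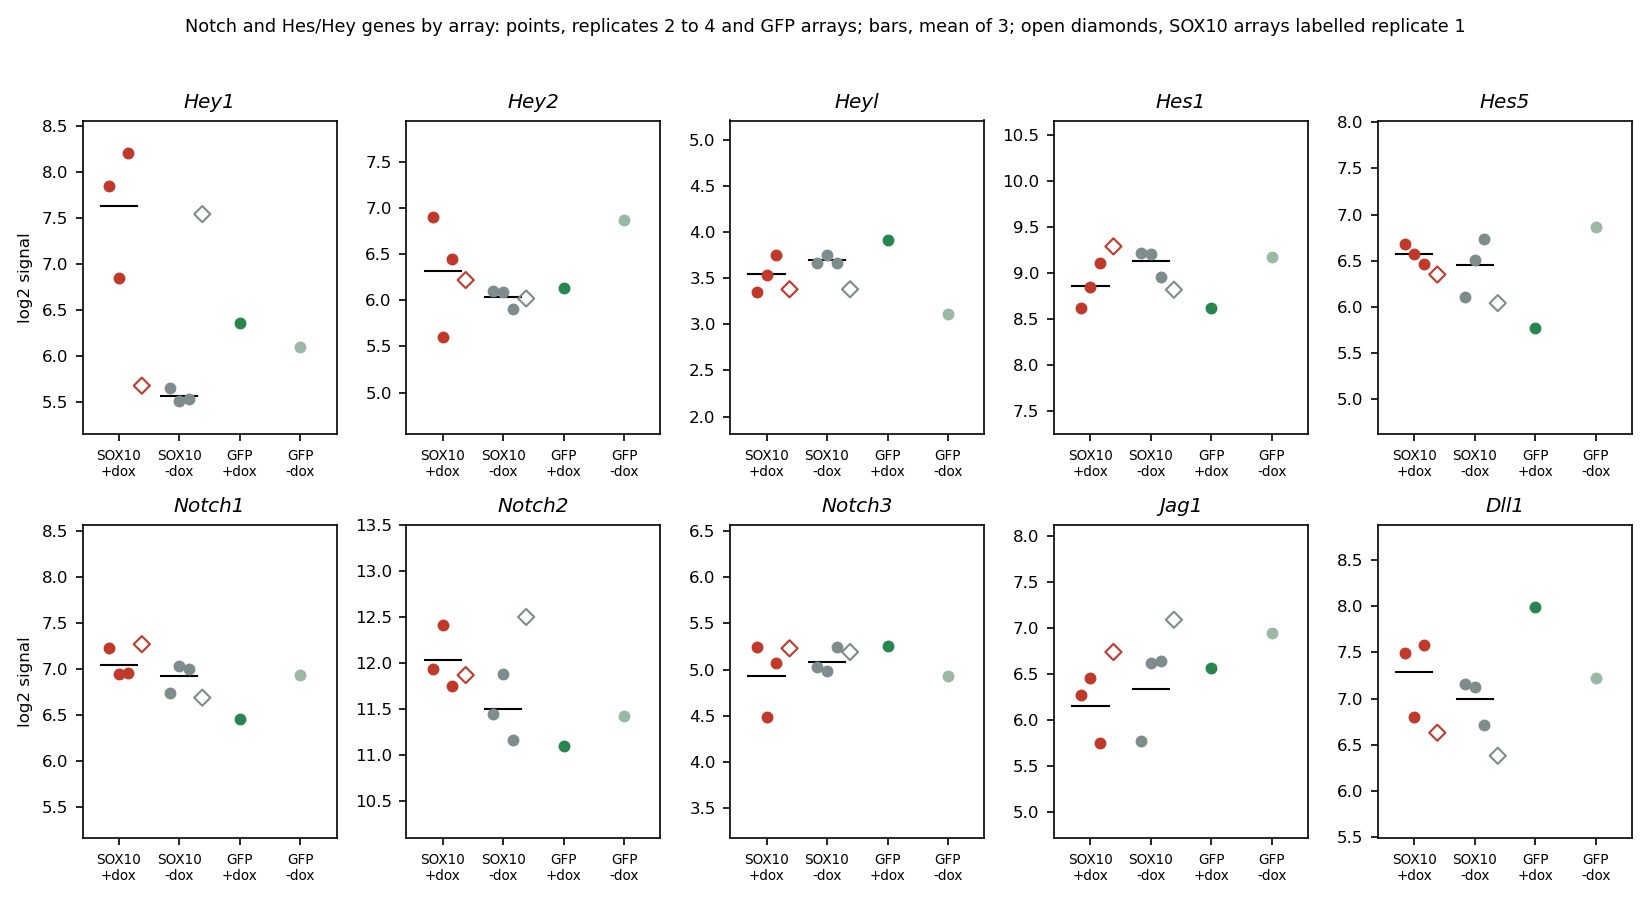
Signals (log2, y axis) of the 10 genes on every array, by group on the x axis, with bars at the mean of replicates 2 to 4 and open diamonds for the SOX10 arrays labelled replicate 1. Every panel spans the same number of log2 units. The SOX10 +dox points of Hey1, 6.85 to 8.20, lie above its SOX10 -dox points, 5.51 to 5.65, while in the other panels the groups overlap.

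Hey1 is a basic helix-loop-helix repressor of the Hey family, which are targets of Notch in many tissues. Its signal was 7.85, 6.85 and 8.20 in SOX10 +dox replicates 2 to 4, against 5.65, 5.51 and 5.54 in SOX10 -dox replicates 2 to 4. Every SOX10 +dox array lay above every SOX10 -dox array, as for 9.50% of all transcript clusters, beside 10.5% that lay wholly below. The means were 7.63 ± 0.70 in SOX10 +dox and 5.57 ± 0.07 in SOX10 -dox cells (SD, n = 3 each), so the induced cultures varied far more than the untreated ones. The difference was 2.07 ± 0.32 (95% interval 1.37 to 2.77, adjusted p = 0.004, limma), or 4.187-fold. By replicate number it was 2.20, 1.33 and 2.66. Leaving out 1 of the 6 arrays at a time gave 1.78 to 2.46 with adjusted p of 0.00102 to 0.0258. The array labelled SOX10 +dox replicate 1 had 5.68, close to the untreated arrays, and the one labelled SOX10 -dox replicate 1 had 7.54, within the range of the induced arrays. With all 8 arrays as labelled the difference was 1.08 ± 0.57 and did not pass the test (adjusted p = 0.973).

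The nearest profiles to that of Hey1 over the 8 arrays compared, by root mean square distance after each gene was centred on its own mean, were those of Entpd7 (0.35 log2 units), Cdhr2 (0.35) and C16h8orf48 (0.36). Their differences between SOX10 +dox and SOX10 -dox cells were 2.06, 1.66 and 1.67. Since these genes were picked for likeness to Hey1 over the same arrays, differences near that of Hey1 follow from the pick. Entpd7 and Cdhr2 were named only through the study's own DEG table, which holds genes chosen on these samples.

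The other members of the Hes/Hey group showed no shift of that size. Hey2, the close relative of Hey1, had 6.90, 5.60 and 6.45 in SOX10 +dox and 6.10, 6.09 and 5.91 in SOX10 -dox cells. Its SOX10 +dox arrays lay on both sides of the SOX10 -dox arrays, and the difference of 0.28 ± 0.31 (interval -0.40 to 0.95, adjusted p = 0.761) was no larger than its error. Heyl, the third Hey gene, gave 3.35, 3.53 and 3.75 in SOX10 +dox and 3.67, 3.75 and 3.67 in SOX10 -dox cells, a difference of -0.15 ± 0.21 (interval -0.62 to 0.32, adjusted p = 0.822). It was the only member among the dimmest 0.25 of transcript clusters, and the table holds no detection calls.

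Hes1, a direct Notch target and repressor of proneural genes, had 8.62, 8.85 and 9.11 in SOX10 +dox and 9.22, 9.21 and 8.96 in SOX10 -dox cells. The highest SOX10 +dox array exceeded the lowest SOX10 -dox array, and the difference was -0.27 ± 0.22 (interval -0.76 to 0.23, adjusted p = 0.667). Hes5, which follows Notch activity in neural progenitors, had 6.68, 6.57 and 6.46 in SOX10 +dox and 6.11, 6.51 and 6.73 in SOX10 -dox cells. These ranges also overlapped, at a difference of 0.12 ± 0.23 (interval -0.39 to 0.63, adjusted p = 0.884). The interval of Hey1, from 1.37 upward, did not meet those of Hey2, Heyl, Hes1 or Hes5, whose upper bounds were 0.95 or lower. The fit assumed the same variance in every group for each gene, although the SD of Hey1 was 0.70 in SOX10 +dox and 0.07 in SOX10 -dox cells. Intervals that allow each group its own spread were not computed, and the difference between genes was itself not tested.

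The promoters of 3 of these genes are shown because they carry the core word that RBPJ binds, which links a Hes or Hey gene to the receptor. The 250 bases before the transcription start were read from RefSeq promoters of build GRCr8, which held 9 of the 10 genes (not Hey1), with GTGGGAA searched on both strands and printed in capitals in either orientation. The windows are chr1:28640850-28641099 (strand +) for Hey2, chr11:84213046-84213295 (strand -) for Hes1 and chr5:170804327-170804576 (strand +) for Hes5, each printed 5′ to 3′ along its gene.
Hey2: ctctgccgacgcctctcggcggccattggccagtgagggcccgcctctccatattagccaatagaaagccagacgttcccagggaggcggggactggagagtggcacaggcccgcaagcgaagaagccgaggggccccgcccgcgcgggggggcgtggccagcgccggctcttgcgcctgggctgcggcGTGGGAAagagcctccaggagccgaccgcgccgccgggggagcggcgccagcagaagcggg
Hes1: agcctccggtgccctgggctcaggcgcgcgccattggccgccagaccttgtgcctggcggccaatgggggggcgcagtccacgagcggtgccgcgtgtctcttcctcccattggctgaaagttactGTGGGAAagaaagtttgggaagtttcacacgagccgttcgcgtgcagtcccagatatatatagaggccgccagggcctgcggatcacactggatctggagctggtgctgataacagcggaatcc
Hes5: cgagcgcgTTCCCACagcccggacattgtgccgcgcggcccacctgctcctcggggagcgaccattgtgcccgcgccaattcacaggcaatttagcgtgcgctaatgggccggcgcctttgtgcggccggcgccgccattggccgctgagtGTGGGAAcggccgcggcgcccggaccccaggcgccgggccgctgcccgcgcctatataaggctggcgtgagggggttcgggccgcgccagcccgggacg

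The word began 61 bases before the start in Hey2, 124 before it in Hes1, and 242 and 99 before it in Hes5. For Hes5 the start used lay downstream of the first base of its gene record, chr5:170804511, so the window overlaps the gene. Dll1 held it as well, 185 bases before its start, and Heyl, Notch1, Notch2, Notch3 and Jag1 had no match in this window. Of 33469 rat promoters of the same length 5.27% held it. ACAAAG or ACAATG, words that SOX proteins bind, occurred 3 times in the Hes5 window and 1 time in that of Jag1, and in 25.3% of all promoters. Among the further pathway genes described below, Maml2 held such a word 16 bases before its start and Fbxw7 157 before it. Numb and Dtx4 held none, and none of these 4 held the RBPJ word. Hey2, Hes1, Hes5 and Dll1, the genes with the RBPJ word, had differences of 0.28, -0.27, 0.12 and 0.29 between SOX10 +dox and SOX10 -dox cells. A match is a description of the letters and does not show binding.

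Of the receptors, Notch2 came closest to a shift. It had 11.94, 12.41 and 11.75 in SOX10 +dox and 11.45, 11.88 and 11.17 in SOX10 -dox cells. The groups overlapped, yet within each replicate number the SOX10 +dox array was higher, by 0.48, 0.53 and 0.58. The difference of 0.53 ± 0.27 (interval -0.05 to 1.11, adjusted p = 0.40) did not pass the test, nor did it with the replicate number as a block (0.53 ± 0.19, adjusted p = 0.159). Hey1 and Notch2 were the 2 genes of the set that were higher in all 3 replicate numbers. Of the others, 8 had mixed signs and 0 were lower in all 3. The same count over all transcript clusters is not given, so whether 2 such genes are more than usual cannot be judged. The array labelled SOX10 +dox replicate 1 had 11.87 for Notch2 and the one labelled SOX10 -dox replicate 1 had 12.50, the opposite order.

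Notch1, the receptor most often studied in neural progenitors, had 7.23, 6.95 and 6.96 in SOX10 +dox and 6.74, 7.03 and 7.0 in SOX10 -dox cells. Its difference was 0.12 ± 0.22 (interval -0.35 to 0.60, adjusted p = 0.871), with overlapping groups. Notch3, best known from vascular smooth muscle, had 5.24, 4.49 and 5.07 in SOX10 +dox and 5.03, 4.98 and 5.24 in SOX10 -dox cells. The low SOX10 +dox array of replicate 3 set the sign of its difference of -0.15 ± 0.25 (interval -0.70 to 0.39, adjusted p = 0.854), which was 0.07 without it.

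Neither ligand of the set passed the test. Jag1, a ligand of the Jagged type, had 6.27, 6.46 and 5.75 in SOX10 +dox and 5.77, 6.62 and 6.64 in SOX10 -dox cells, with a difference of -0.18 ± 0.29 (interval -0.83 to 0.46, adjusted p = 0.851). Dll1, a ligand of the Delta type, had 7.49, 6.80 and 7.58 in SOX10 +dox and 7.16, 7.13 and 6.71 in SOX10 -dox cells, with a difference of 0.29 ± 0.26 (interval -0.29 to 0.87, adjusted p = 0.698). For both, the spread within a group exceeded the difference between the groups.

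In the GFP line, which controls for doxycycline and the transactivator, none of the 10 genes passed the test (1 at an unadjusted p under 0.05), and of all transcript clusters 0 did, against 1458 at an unadjusted p under 0.05. Hey1 had 6.36 in GFP +dox and 6.10 in GFP -dox cells, a difference of 0.27 (interval -0.95 to 1.48, adjusted p = 0.963). Both GFP arrays thus lay above the 3 SOX10 -dox arrays and below the 3 SOX10 +dox arrays. Hes5 had the largest difference in this line, 5.77 in GFP +dox and 6.87 in GFP -dox cells (-1.10, interval -1.98 to -0.21, adjusted p = 0.748), the only one past 2-fold. Without a test, 3.66% of all transcript clusters were at least 2-fold higher in GFP +dox cells and 2.27% lower. Hey2 had 6.13 in GFP +dox and 6.87 in GFP -dox, Heyl 3.91 and 3.11 in that order, Dll1 7.99 and 7.22, and Hes1 8.62 and 9.17. The receptors and Jag1 differed by -0.47 (Notch1), -0.33 (Notch2), 0.32 (Notch3) and -0.38 (Jag1). With 1 array per group, assumed to vary like the SOX10 arrays, 0 of the 10 intervals lay within 2-fold in either direction.

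**Figure D2:**
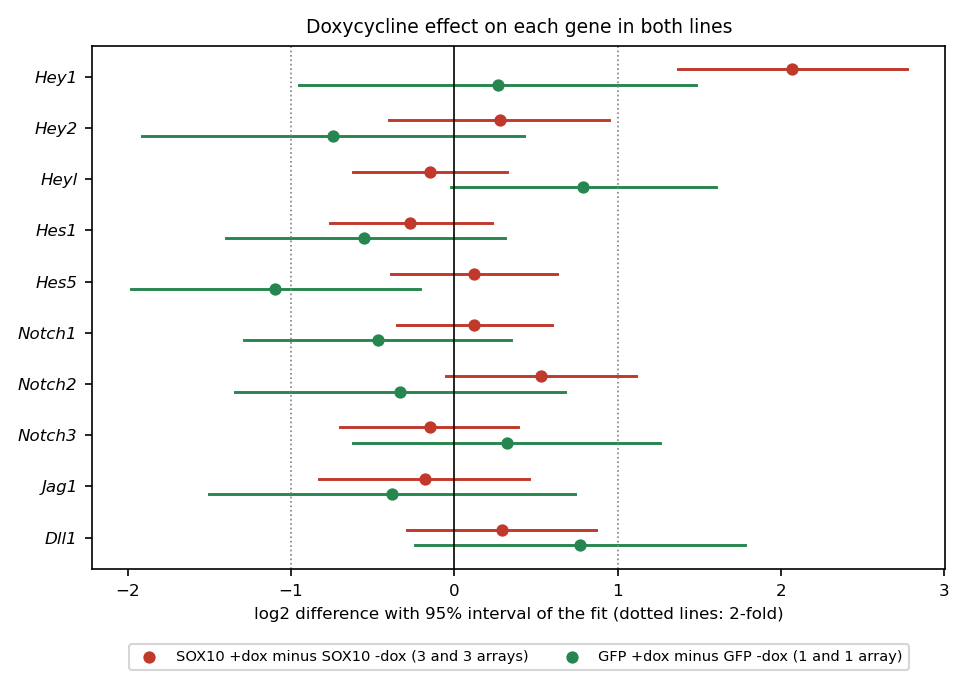
Log2 differences (x axis) of the 10 genes (y axis) for SOX10 +dox minus SOX10 -dox (3 and 3 arrays) above GFP +dox minus GFP -dox (1 and 1 array), with lines for the 95% intervals of the fit. Hey1 in the SOX10 line is the only point whose interval, 1.37 to 2.77, lies wholly past the dotted 2-fold line. The fit assumed the same variance in every group for each gene.

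Whether doxycycline acted differently in the lines was tested as the SOX10 effect minus the GFP effect. For Hey1 it was 1.80 ± 0.64 (interval 0.40 to 3.20), which did not pass after adjustment over all transcript clusters (adjusted p = 0.42), where 0.384% of transcript clusters passed. Hes5 (1.22, adjusted p = 0.453) and Heyl (-0.94, adjusted p = 0.548) were the other members with an unadjusted p under 0.05. The remaining 7 lay between -0.48 and 1.02. Between the untreated lines, SOX10 -dox against GFP -dox, 0 of the 10 genes and 0 transcript clusters passed, and Hey1 differed by -0.53 ± 0.45 (interval -1.52 to 0.46).

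Beyond the 10 genes, 64 further genes of the pathway carried a platform symbol, of 82 listed by role. Of these, 3 rose (Ccn3, Dtx4 and Numb), 0 fell and 61 did not pass, beside 2.26% higher and 1.24% lower over all transcript clusters. Their median difference was 0.02. A further 3 listed genes were named only through the study's DEG table, a list chosen on these samples and so no independent evidence of direction: Maml2 and Fbxw7 rose, and Kat2b, a histone acetyltransferase, did not pass (1.47 ± 0.44, adjusted p = 0.113) unless the replicate number was a block (1.47 ± 0.22, adjusted p = 0.00395).

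Ccn3, a secreted matricellular protein that can bind the extracellular domain of Notch1, had the largest difference of the pathway. Its signal was 18.08, 17.87 and 15.92 in SOX10 +dox and 12.19, 12.41 and 12.83 in SOX10 -dox cells. The groups were far apart, with a difference of 4.82 ± 0.47 (adjusted p = 0.000213), or 28.19-fold. It had 12.11 in GFP +dox and 12.74 in GFP -dox cells, and the SOX10 effect minus the GFP effect was 5.45 ± 0.95 (adjusted p = 0.0409). That call was lost on leaving out any of the 6 arrays other than SOX10 +dox replicate 4 (adjusted p 0.0638 to 0.112). The other 6 measured ligands and ligand-like proteins lay between -0.79 and 0.08 and did not pass.

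The other genes that rose act inside the cell. Dtx4, a Deltex ubiquitin ligase of the group that binds the intracellular part of Notch, had 9.36, 9.48 and 7.48 in SOX10 +dox and 5.75, 5.79 and 5.62 in SOX10 -dox cells (3.06 ± 0.44, adjusted p = 0.0026, 8.316-fold). Numb, an endocytic adaptor that opposes Notch, had 14.87, 14.79 and 14.03 in SOX10 +dox and 12.99, 12.89 and 13.05 in SOX10 -dox cells (1.59 ± 0.26, adjusted p = 0.00569, 3.004-fold). In both, every SOX10 +dox array lay above every SOX10 -dox array, as for 9.50% of all transcript clusters. Of the 64 further genes with a platform symbol, 10 lay wholly above and 10 wholly below. Maml2, a coactivator that docks on the RBPJ complex, had 11.82, 11.80 and 11.29 in SOX10 +dox and 9.69, 9.69 and 9.74 in SOX10 -dox cells (1.93 ± 0.23, adjusted p = 0.000695, 3.806-fold). Fbxw7, the F-box protein that marks the intracellular domain of Notch for degradation, had 10.81, 10.80 and 11.07 in SOX10 +dox and 9.64, 10.06 and 9.94 in SOX10 -dox cells (1.01 ± 0.22, adjusted p = 0.0273, 2.017-fold). Its difference was just past 2-fold, and the call was lost on leaving out any 1 of the 6 arrays (adjusted p 0.0588 to 0.127).

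In the GFP line none of these 4 genes passed the test. Dtx4 had 5.94 in GFP +dox and 5.84 in GFP -dox cells, Numb 13.11 and 13.54 in that order, Maml2 9.46 and 9.77, and Fbxw7 9.37 and 9.99. The SOX10 effect minus the GFP effect of these 4 genes did not pass the test, with 2.95 for Dtx4 (adjusted p = 0.294), 2.01 for Numb (0.197), 2.23 for Maml2 (0.084) and 1.64 for Fbxw7 (0.223).

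**Figure D3:**
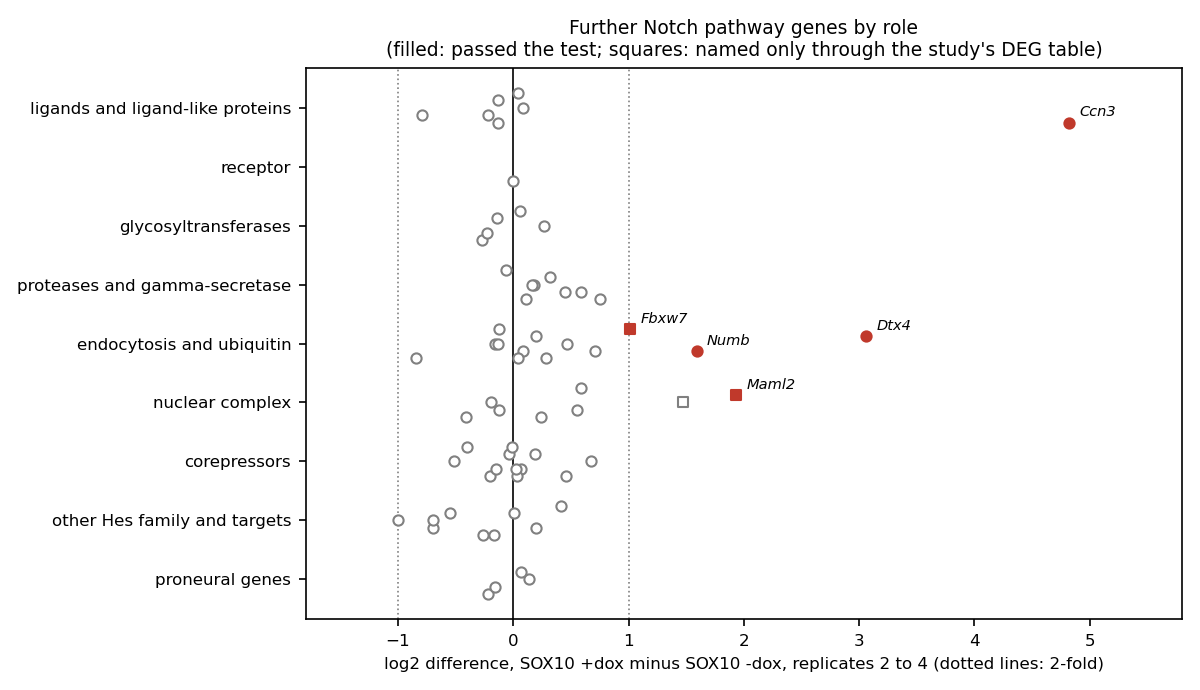
Log2 differences, SOX10 +dox minus SOX10 -dox in replicates 2 to 4 (x axis), of the further Notch pathway genes, 1 symbol per gene, by role (y axis). Filled symbols passed the test and squares were named only through the study's DEG table. Ccn3 (4.82), Dtx4 (3.06), Maml2 (1.93), Numb (1.59) and Fbxw7 (1.01) are filled, and the open square at 1.47 is Kat2b.

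No other gene with a platform symbol passed the test. The glycosyltransferases that modify the receptors (5 genes) lay between -0.27 and 0.27, and the receptor Notch4 at -0.00. The proteases and γ-secretase subunits (8 genes) lay between -0.06 and 0.75. Of the nuclear complex with platform symbols (6 genes) the range was -0.41 (Rbpj) to 0.59 (Maml3), and of the corepressors (12 genes) -0.51 to 0.67. Other Hes genes and common targets (9 genes) ranged over -1.0 (Myc) to 0.41 (Hes2), and the proneural genes (4) over -0.22 to 0.14. In 45 of the 61 genes that did not pass, the interval lay within 2-fold in either direction. Some of the 61 had low signals, with group means of 3.36 in SOX10 +dox and 3.28 in SOX10 -dox for Cntn6, and 3.75 and 3.88 for Dll3. Without detection calls, a narrow interval at such a signal need not bound a change in expression.

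The 5 genes closest to the threshold lay on both sides of 0. Adam10, the protease that cuts the bound receptor, had 12.35, 12.27 and 12.46 in SOX10 +dox and 11.60, 11.63 and 11.60 in SOX10 -dox cells (0.75 ± 0.20, adjusted p = 0.0725). Mib1, a ubiquitin ligase that prepares ligands for endocytosis, gave 0.71 ± 0.23 (adjusted p = 0.149). Dtx2, another Deltex ligase, had 7.41, 7.26 and 7.81 in SOX10 +dox and 8.14, 8.44 and 8.43 in SOX10 -dox cells (-0.84 ± 0.23, adjusted p = 0.0797), opposite in sign to Dtx4. Ccnd1, the cell cycle gene of cyclin D1, gave -0.70 ± 0.21 (adjusted p = 0.118), and Cntn1, an adhesion protein reported as a Notch ligand, -0.79 ± 0.26 (adjusted p = 0.157). None was changed by 2-fold.

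The genes that rose did not follow the same order over the replicate numbers. Sox10 itself differed by 6.54, 6.51 and 6.60 in replicates 2, 3 and 4, almost equally. In replicates 2 and 3 Ccn3 differed by 5.90 and 5.46, Dtx4 by 3.61 and 3.69, Numb by 1.88 and 1.90 and Maml2 by 2.13 and 2.11. In replicate 4 all 4 had their smallest difference, 3.10 for Ccn3, 1.87 for Dtx4, 0.99 for Numb and 1.55 for Maml2. Hey1 had its largest difference there, 2.66, and its smallest in replicate 3. Fbxw7 was lowest in replicate 3 too, with 1.17, 0.74 and 1.13. Without SOX10 +dox replicate 4 the difference was 1.78 ± 0.30 for Hey1, 5.50 ± 0.26 for Ccn3, 3.70 ± 0.22 for Dtx4, 1.85 ± 0.22 for Numb and 2.10 ± 0.22 for Maml2, and all 5 passed the test. With 1 value per replicate number, these orders have no test of their own.

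**Figure D4:**
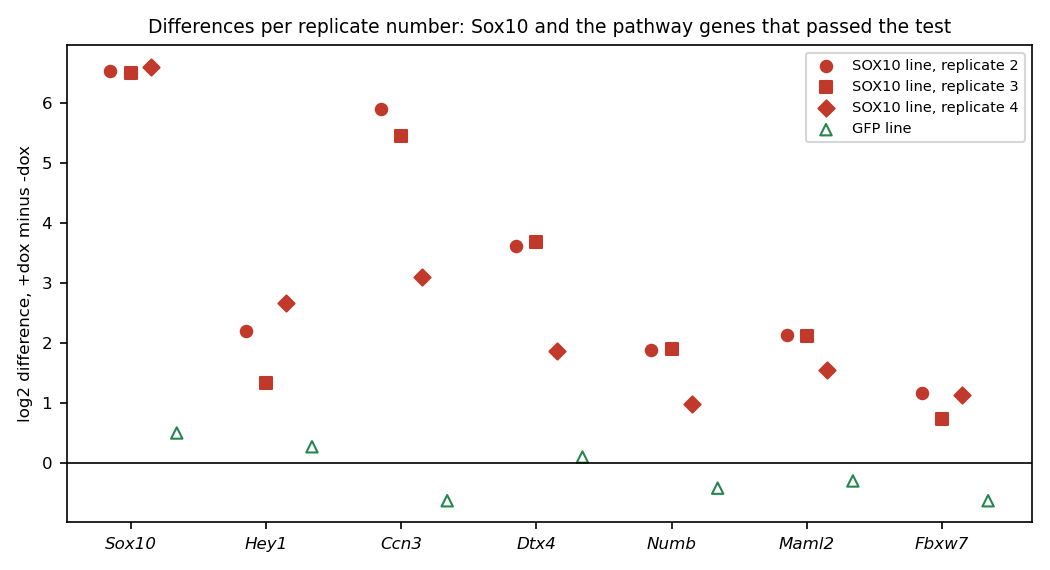
Log2 differences, +dox minus -dox (y axis), of Sox10 and the 6 pathway genes that passed the test (x axis), 1 filled symbol for each of SOX10 replicates 2 to 4 and an open triangle for the GFP line. The diamonds of replicate 4 are lowest for Ccn3, Dtx4, Numb and Maml2 and highest for Hey1, while the 3 symbols of Sox10 coincide, between 6.51 and 6.60.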

How the data were processed

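Total RNA of JUG2 cells was labelled and hybridized to 10 Clariom S arrays. The values used are the log2 signals that the authors made in the Transcriptome Analysis Console and deposited as 1 table of arrays by probe sets. The summarization, normalization and genome build are not given in the sources used here, and signals of different probes were not compared. Of 24834 probe sets, 1646 controls (31 AFFX, 63 ERCC and 1552 RG) were left out. Medians of the arrays were 6.69 to 6.86, and precision is limited by how many arrays there are.

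Groups came from the sample titles. A linear model with 1 coefficient per group was fitted with limma 3.58.1 (R 4.3.3) to 6 arrays of the SOX10 line (replicates 2 to 4, 3 with and 3 without doxycycline) and the 2 GFP arrays. The Benjamini-Hochberg adjustment ran over 23188 transcript clusters, and genes were called at an adjusted p under 0.05 with at least 2-fold change. The legend of the study gives this limit and its methods the stricter 0.01, which was run as an alternative. Genes were named from the platform annotation, or, for 3 further pathway genes, Entpd7 and Cdhr2, from the study's DEG table, of which only the symbols were used. Across the series 381 transcript clusters had a name only through that table. Nearest profiles were sought among transcript clusters with a name. Named were all members, Sox10, each further pathway gene that was called, the 5 not called with the smallest adjusted p, those named only in the DEG table, and the 3 profiles nearest to each called member. Other names at the end of a range were chosen after their values were seen. The members, the role lists, the markers and the use of replicates 2 to 4 were chosen with earlier results of these data known. Some genes are not reported here.

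The SOX10 groups share replicate numbers. Deviations from the group means correlated at 0.194, 0.15 and 0.411 in same-numbered arrays and at -0.282 to 0.171 in others. These ranges overlap, so whether the numbers pair the arrays is uncertain, and the labels do not say. The main fit had no block for the replicate number. Alternatives were all 8 SOX10 arrays as labelled, the replicate number as a block, the SOX10 line alone, quantile normalization, centring on array medians, a filter on the dimmest 0.25 of transcript clusters, array weights, an intensity trend, other limits, and leaving out each array.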

Additional observations from a re-analysis of the deposited data

Results flagged for a closer look

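With all 4 arrays of a group taken as labelled, 1 array stood far from the other 3 in 7 of 32 groups examined (SOX10 +dox and SOX10 -dox for Sox10, the 10 genes and the 5 further genes that passed), and in each it was an array labelled replicate 1. Among the SOX10 -dox arrays these were the values 7.54 for Hey1, 12.90 for Sox10, 17.70 for Ccn3, 15.02 for Numb, 10.11 for Dtx4 and 12.23 for Maml2, and among the SOX10 +dox arrays 6.74 for Sox10. Chance marks about 1 in 20 groups. Since these genes were taken because replicates 2 to 4 held together within groups, or with replicate 1 already known to run against its labels, the count is a description and no test. The same array labelled SOX10 -dox replicate 1 was left out of the comparisons of replicates 2 to 4. It also lay above the highest other -dox array of either line for Hey1 (7.54 against 6.10), Sox10 (12.90 against 6.43) and Ccn3 (17.70 against 12.83). So it did for Numb (15.02 against 13.54), Fbxw7 (11.12 against 10.06), Dtx4 (10.11 against 5.84) and Maml2 (12.23 against 9.77). The same held for Notch2 (12.50 against 11.88) and Jag1 (7.09 against 6.95), which did not pass the test.

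Among the same 16 genes, the SOX10 effect minus the GFP effect passed the test for Sox10 (6.04, adjusted p = 0.000108, limma) and Ccn3 (5.45, adjusted p = 0.0409). For Sox10 this is a description, since the arrays compared were kept with its signals known. In a further 4 of the 16 all 3 SOX10 differences were above 0 and the GFP difference was below 0, at -0.33 for Notch2, -0.42 for Numb, -0.63 for Fbxw7 and -0.30 for Maml2. With 1 GFP array per group this opposite sign was not tested as such, and the difference between the lines did not pass for any of the 4 (adjusted p = 0.681 for Notch2, 0.197 for Numb, 0.223 for Fbxw7 and 0.084 for Maml2).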

How the results depend on the processing

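With all 8 SOX10 arrays as labelled, 0 of the 10 genes, 0 further pathway genes and 0 transcript clusters passed (863 at an unadjusted p under 0.05), as did 0 for the SOX10 effect minus the GFP effect (884). The differences were then 3.37 for Sox10, 1.08 for Hey1, 2.23 for Ccn3, 1.22 for Dtx4 and 0.70 for both Numb and Maml2. At an adjusted p under 0.01, 421 transcript clusters passed in place of 812, and 27 in place of 89 for the SOX10 effect minus the GFP effect, which array weights raised to 206. Leaving out 1 array gave 475 to 963 and 43 to 177. It turned the sign of Hey2 (-0.01 to 0.64, below 0 without SOX10 +dox replicate 2), Hes5 (-0.05 to 0.26, below 0 without SOX10 -dox replicate 2), Notch3 (-0.31 to 0.07, above 0 without SOX10 +dox replicate 3) and Jag1 (-0.47 to 0.02, above 0 without SOX10 +dox replicate 4), none of which passed. Fbxw7 fell under 2-fold with array weights (0.96). With the replicate number as a block, 1012 transcript clusters, 1 of the 10 genes (Hey1, 2.07 ± 0.26, adjusted p = 0.00183) and 3 further genes passed, as did Sox10, Maml2 and Fbxw7. Kat2b (adjusted p = 0.00395) and the marker Tagln (0.0127) passed with the block and not without it, and the block changed no other call among the 10 genes, the 67 further genes and the 27 markers. Each of the 10 genes had 1 transcript cluster, so another cluster per gene could not be tried. The causes were not tested.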
